A study of Mus musculus with 8 samples.

Results

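The genes of voltage-gated calcium channels, voltage-gated sodium channels, HCN channels and the sodium leak channel NALCN were examined in punches of the mouse ventral tegmental area (VTA). They were taken from the count table by their symbols, which gave 45 of its 54735 genes. These were 10 pore-forming calcium channel alpha1 subunits, 4 alpha2delta subunits, 4 calcium channel beta subunits, 8 genes of the Cacng family, 10 pore-forming sodium channel alpha subunits, 4 sodium channel beta subunits, 4 HCN channels and Nalcn. Counts were high enough to test 40 of them. The other 5 were Cacna1f, Cacna1s, Cacng1, Scn4a and Scn10a, which had group means under 1 CPM.

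Many dopamine neurons of the ventral midbrain fire on their own, without synaptic drive. NALCN and HCN channels carry inward current near rest, L-type and T-type calcium channels add calcium current below the spike threshold, and sodium channels carry the spike itself. The pore of a calcium or sodium channel is 1 large alpha subunit, and smaller partners set how many channels reach the membrane and how they open and close. These channels are used by most central neurons, so a punch measures them in all of its neurons together.

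The study asked how social stress in early life changes gene expression in the developing VTA. All mice were of the inbred strain DBA2/J and the labels name no transgene and give male sex and age P21 (the methods describe collection on the day after the last exposure). In the social stress (SS) group, litters were exposed for 30 min per day between P14 and P21 to an adult male of another strain that was unfamiliar and threatening. Control (CTR) litters were left unhandled. Each group had 4 libraries, named here by group and label number, which runs over 1, 2, 3 and 5 in CTR (from CTR-1 to CTR-5) and over 2, 3, 4 and 5 in SS (from SS-2 to SS-5). Group was assigned by litter and the sources do not tie libraries to litters, so a litter effect cannot be told apart from the group.

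Library totals ranged from 20036086 to 47319997 counts on genes. Values are CPM (counts scaled to a common library total after TMM normalization) or, where levels of different genes are compared, RPKM (CPM per kilobase of exon). All 8 markers of dopamine neurons had counts in every library except Pitx3, which had none in SS-3 and SS-4, and their summed level was 710 to 1793 CPM in CTR and 74.1 to 131 CPM in SS. Both CTR-5 and SS-5 held transcripts of Xist (14997 and 6551 counts) and nearly lacked Y-linked transcripts (3 and 0 counts) although labelled male, and the other 6 libraries showed the reverse. Of 1991 genes with a mean of 1 to 3 CPM, CTR-1 lacked a count for 434 and CTR-2 for 355, compared with 1 to 94 in the others. For many of the members whose values turn on these 4 libraries, the fold change is also given without CTR-5 and SS-5 and without CTR-1 and CTR-2. The fit without CTR-1 and CTR-2 leaves CTR-3 and CTR-5 as the only controls, and CTR-5 is itself a library with Xist. Its values therefore lean heavily on CTR-5.

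No member was called between SS and CTR by edgeR's quasi-likelihood test with Benjamini-Hochberg adjustment, where 14 of 16538 genes (0.0847%) were called, and all of those were lower in SS. DESeq2 called 1 member, on the lower side, against 0.419% of genes called in all. At an unadjusted p under 0.05 in edgeR, 4 members were lower, among them Cacng3, Scn3b and Scn4b, and 3 higher in SS (Cacna1g, Cacna1i and Cacna2d4), 17.5% of the 40 against 6.55% of all genes tested. The lower side of that background was 3.7% and the higher side 2.85%. In 4 members (10%) the CTR and SS values did not overlap, against 4.67% of all genes. These were 3 lower members (background 2.21%) and 1 higher (background 2.47%).

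Differences were small. The log2 fold change of SS relative to CTR (log2FC) was below 0 for 19 members and above 0 for 21, with a median of 0.02 against 0.004 over all genes. Of the 40 members, 36 had a mean of at least 10 CPM, and these ranged from -0.62 (Scn4b) to 0.53 (Cacna1i). The 95% interval of the log2FC lay inside -0.5 to 0.5 for 18 of the 36 and inside -1 to 1 for 35. The exception was Scn4b, with an interval from -1.08 to -0.16.

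**Figure D1:**
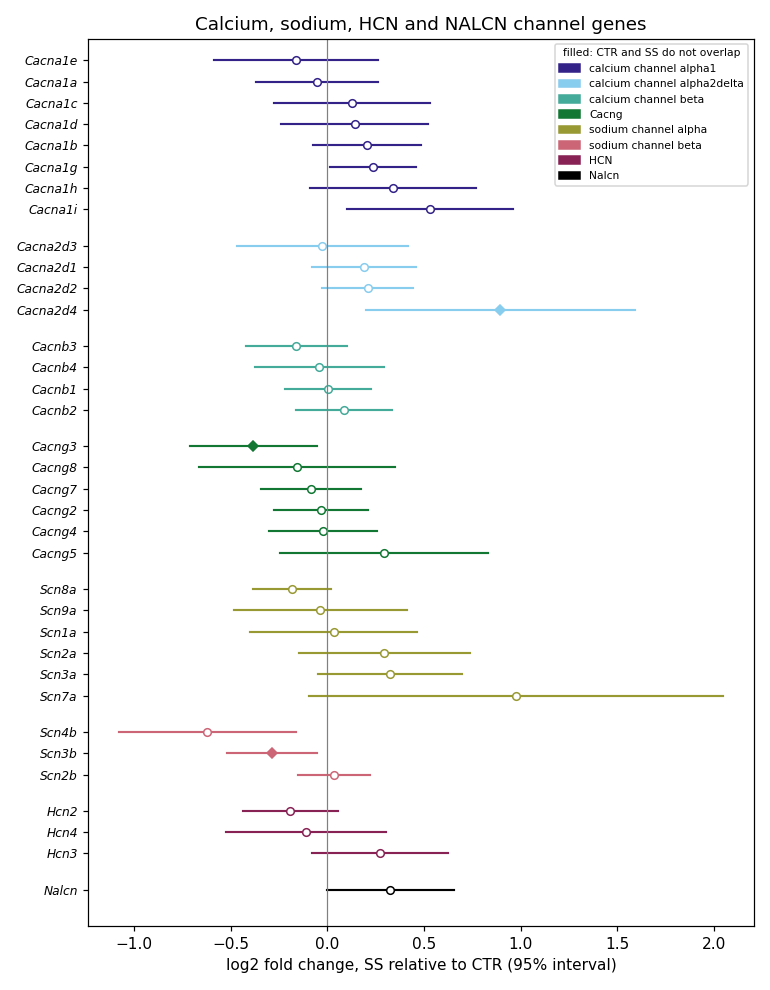
Log2 fold change (SS relative to CTR, horizontal axis) with its 95% interval for 35 tested channel genes, grouped by subfamily. Filled diamonds mark genes whose CTR and SS values did not overlap (Cacng3, Scn3b and Cacna2d4), and Cacng6 and Scn11a, with about 1 CPM or less, are left out.

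The sodium channel beta subunits are small membrane proteins with 1 immunoglobulin-like domain that bind the alpha subunit, alter its gating and also act in cell adhesion. Of the 3 described here, the mean level was lower in SS for Scn3b and Scn4b and close to that of CTR for Scn2b, and none of these passed the adjusted threshold in edgeR. Per exon length, Scn2b (90.2 ± 7.02 RPKM in CTR and 92.5 ± 6.18 in SS, SD, n = 4 each) was more abundant than Scn3b (37.4 ± 5.47 and 30.7 ± 0.391), and Scn4b was lower still (12.9 ± 3.65 and 8.39 ± 1.54). The beta2 and beta4 proteins are tied to the alpha subunit by a disulphide bridge, whereas beta3 binds it without a covalent bond.

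Scn3b (chr9:40269217-40291618, plus strand on GRCm38) was at 205, 171, 197 and 243 CPM in the CTR libraries and 169, 169, 167 and 165 CPM in the SS libraries, in the order given above. The 4 SS values lay within 5 CPM of each other and below all CTR values, of which CTR-2 was the closest. The log2FC was -0.29 (SE 0.11, adjusted p = 0.755, edgeR), and it was -0.18 without CTR-5 and SS-5 and -0.40 without CTR-1 and CTR-2. Scn4b, whose product is known for resurgent sodium current in fast-firing neurons, was at 39.6, 82.7, 70.9 and 64.1 CPM in CTR and 50.5, 45.3, 38.5 and 32.9 CPM in SS. Here CTR-1 lay among the SS values and the other 3 CTR libraries lay above all of them. The log2FC was -0.62 (SE 0.21, adjusted p = 0.741, edgeR).

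Scn2b had a fold change close to 0. It was at 374, 450.2, 430.1 and 426 CPM in CTR and 465, 430.2, 432 and 395 CPM in SS, and the groups overlapped. The log2FC was 0.04 with a 95% interval of -0.15 to 0.22, so that the estimates for Scn3b and Scn4b lay outside it. The difference between these genes was not tested.

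Scn2b and Scn4b lie on the same strand of chromosome 9 (chr9:45117782-45130070 and chr9:45138395-45154152) and had log2FC values of 0.04 and -0.62, and their promoters are shown to set the sequence beside these values. RefSeq windows from 250 bases before to 50 after the start on GRCm38.p6 were at hand for 33 of the 45 members, Scn2b and Scn4b being the only beta subunits among them. CpG dinucleotides (CG, which reads the same on both strands) are in capitals. The Scn2b window spans chr9:45117626-45117925 and the Scn4b window chr9:45138374-45138673, both on the plus strand. The RefSeq start used for the windows lies downstream of the GENCODE gene start given above for both genes. By GENCODE, a part of the Scn2b window and most of the Scn4b window thus lie within the gene.
Scn2b: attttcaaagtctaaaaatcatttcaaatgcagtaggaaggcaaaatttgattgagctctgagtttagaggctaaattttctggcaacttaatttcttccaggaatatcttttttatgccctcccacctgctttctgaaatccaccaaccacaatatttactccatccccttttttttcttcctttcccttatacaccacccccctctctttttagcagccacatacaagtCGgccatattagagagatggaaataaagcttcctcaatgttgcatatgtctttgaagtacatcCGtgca
Scn4b: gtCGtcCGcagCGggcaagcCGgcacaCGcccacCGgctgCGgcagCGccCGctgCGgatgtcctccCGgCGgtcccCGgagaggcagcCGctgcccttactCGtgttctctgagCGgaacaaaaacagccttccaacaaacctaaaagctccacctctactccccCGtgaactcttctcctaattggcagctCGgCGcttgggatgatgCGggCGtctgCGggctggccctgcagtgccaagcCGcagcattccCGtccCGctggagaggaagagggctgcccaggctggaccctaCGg
The Scn2b window held 2 CpG and 38.3% G or C, and the Scn4b window 26 CpG and 66.3%. The median of all 32851 windows was 7 CpG and that of the 33 members 9. At most 2 CpG were found in 23.3% of all windows and at least 26 in 16.9%, so neither window was of a rare kind. The GC box (GGGCGG, both strands) was in neither, and in 35.7% of all windows. The CCAAT box (CCAAT, both strands) was in the Scn4b window and in 37.4% of all windows. These are matches of letters, not tested sites.

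**Figure D2:**
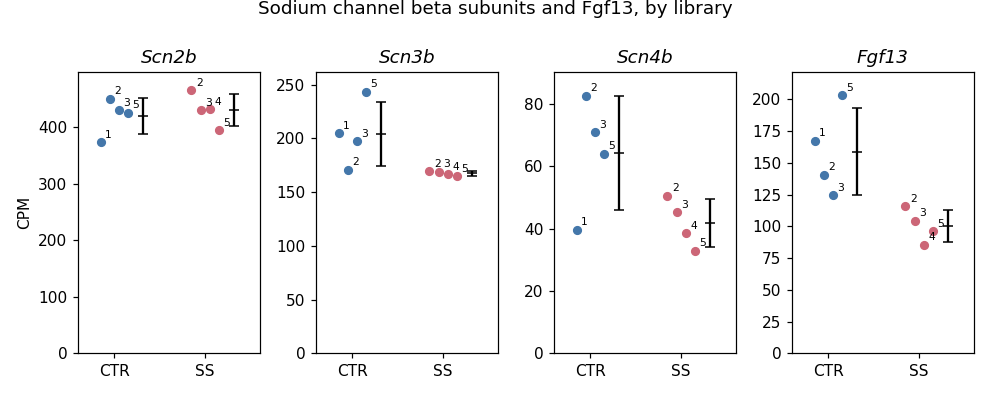
CPM (vertical axis, from 0) of 3 sodium channel beta subunits and of Fgf13 in each library, labelled by replicate number, with the mean and SD of each group in black (n = 4). All SS points of Scn3b and Fgf13 lie below all CTR points, whereas those of Scn2b and Scn4b overlap with CTR.

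The pore-forming sodium channel alpha subunits had no common direction. Of 8 tested, 3 were lower and 5 higher, with a median log2FC of 0.13, none had an unadjusted p under 0.05 in edgeR, and none was free of overlap. Per exon length, Scn2a, Scn8a and Scn1a were most abundant (15.5 ± 5.15, 16.7 ± 1.52 and 15.3 ± 4.4 RPKM in CTR, SD, n = 4), and these 3 levels did not differ beyond their spread. All 3 encode the main channels of central axons, Scn8a (Nav1.6) being dense at the axon initial segment and nodes of Ranvier.

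Scn8a was at 267, 238, 252 and 294 CPM in CTR and 237, 239, 243 and 209 CPM in SS. CTR-2 lay among the SS values and the other CTR libraries above them, with a log2FC of -0.18 (SE 0.09, 95% interval -0.39 to 0.02), which was -0.08 without CTR-5 and SS-5 and -0.24 without CTR-1 and CTR-2. Scn2a, the main channel of immature axons and unmyelinated fibres, was at 118, 223, 174 and 271 CPM in CTR and 231, 282, 235 and 220.1 CPM in SS. CTR-1 was far below all other libraries here and CTR-5 stood among the highest, with a log2FC of 0.30 (95% interval -0.15 to 0.74). This was 0.53 without CTR-5 and SS-5 and 0.12 without CTR-1 and CTR-2. Scn1a, which is prominent in fast-firing interneurons, had a log2FC of 0.03 (98.4, 208, 182 and 192 CPM in CTR, 192, 192, 170.1 and 142 in SS), and its sign turned with the library left out. Scn3a, mainly a channel of the developing brain, was lower in level than these 3 (3.5 ± 0.90 RPKM in CTR) and had a log2FC of 0.32 (95% interval -0.05 to 0.70), which was 0.45 without CTR-5 and SS-5 and 0.17 without CTR-1 and CTR-2.

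The other alpha subunits were scarce. Scn9a had group means of 15.9 CPM in CTR and 15.5 in SS and Scn7a of 5.88 in CTR and 11.7 in SS, and Scn11a was near 1 CPM in both groups. The log2FC of Scn7a was 0.98 (95% interval -0.09 to 2.05). It was 0.98 without CTR-5 and SS-5 and 0.30 without CTR-1 and CTR-2. Counts of Scn9a may hold reads of the antisense gene Gm13629, which shares 180 bases of exon with it and had 2894 counts over the 8 libraries, because no source used here says whether reads were counted by strand.

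Among 9 genes whose products bind, anchor or turn over sodium channels, 1 was called by DESeq2 and none by edgeR. The called gene, Fgf13, encodes an intracellular fibroblast growth factor homologue that binds the tail of the sodium channel alpha subunit and is not secreted. Fgf13 was at 167, 141, 125 and 203 CPM in CTR and 116, 104, 85.6 and 96.2 CPM in SS. Every SS library was below every CTR library, with a log2FC of -0.66 (SE 0.15), an adjusted p of 0.362 in edgeR and 0.0156 in DESeq2. The DESeq2 call was lost without SS-3, SS-4 or SS-5 (adjusted p 0.0835, 0.215 and 0.0846). The other 8 genes of this group were not called by either tool. They were Fgf11, Fgf12, Fgf14, the anchoring proteins Ank3, Sptbn4, Nfasc and Nrcam of the axon initial segment and node, and the ubiquitin ligase Nedd4l. Of these 8, 7 were higher in level in SS, and Ank3, which holds sodium channels at the initial segment, was at 445 ± 78.6 CPM in CTR and 537 ± 30.4 in SS. The groups overlapped for Ank3, with CTR-1 lowest at 339 CPM and a log2FC of 0.27 (SE 0.12, adjusted p = 0.755, edgeR).

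Most calcium channel alpha1 subunits had fold changes above 0. Of 8 tested, 2 were lower (Cacna1a and Cacna1e) and 6 higher, with a median log2FC of 0.17, and none was called by edgeR or DESeq2. Per exon length, Cacna1g (11.9 ± 1.35 RPKM in CTR), Cacna1a (11.9 ± 2.74) and Cacna1b (10.6 ± 1.79) were the most abundant and did not differ beyond their spread. They encode a T-type channel and the P/Q-type and N-type channels of presynaptic terminals.

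The 3 T-type genes, whose channels open at voltages near rest, all had positive fold changes, which were smaller without CTR-1 and CTR-2. Cacna1i (Cav3.3) was at 43.8, 44.8, 70.1 and 74.3 CPM in CTR and 86.1, 88, 99.6 and 63.8 CPM in SS. SS-5 lay among the CTR values and the other 3 SS libraries above all of them, with a log2FC of 0.53 (SE 0.20, adjusted p = 0.755, edgeR). This was 0.79 without CTR-5 and SS-5 and 0.23 without CTR-1 and CTR-2. Cacna1g (Cav3.1) was at 114, 106, 138 and 125 CPM in CTR and 137, 135, 146 and 149.9 CPM in SS. CTR-3 was the only CTR library within the SS range, and the log2FC was 0.24 (SE 0.10, adjusted p = 0.755, edgeR). For this gene the values were 0.23 without CTR-5 and SS-5 and 0.12 without CTR-1 and CTR-2. Cacna1h (Cav3.2) was at 38.4, 47.1, 56.5 and 82.1 CPM in CTR and 73.7, 64.5, 71.7 and 74.6 CPM in SS. CTR-5 was above all SS libraries and the other 3 CTR libraries below them, with a log2FC of 0.34 (95% interval -0.09 to 0.77). It was 0.56 without CTR-5 and SS-5 and 0.04 without CTR-1 and CTR-2, and ranged over 0.20 to 0.59 with 1 library left out.

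The L-type genes Cacna1c and Cacna1d, of which Cacna1d (Cav1.3) opens at the lower voltages and is the one tied to pacemaking in dopamine neurons, were low per exon length (2.66 ± 0.782 and 2.15 ± 0.453 RPKM in CTR). Cacna1d was at 26.4, 26.1, 21.1 and 34.9 CPM in CTR and 30.9, 29.0, 25.2 and 34.8 CPM in SS, and the groups overlapped, with a log2FC of 0.14 (95% interval -0.24 to 0.52). Its exons share 589 bases with Chdh on the other strand, which had 2588 counts over the 8 libraries. Cacna1c had a log2FC of 0.13 (95% interval -0.28 to 0.53), which was 0.32 without CTR-5 and SS-5 and -0.16 without CTR-1 and CTR-2. The L-type genes of retina and skeletal muscle, Cacna1f and Cacna1s, had means of at most 0.845 CPM in either group.

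Of the alpha2delta subunits, which carry calcium channels to the membrane and are the targets of gabapentin in 2 of their forms, 1 was lower and 3 higher. Cacna2d2 and Cacna2d1 made up most of their RPKM in CTR (48.4% ± 5.73 and 38.1% ± 4.05). Cacna2d2 had a log2FC of 0.21 (95% interval -0.03 to 0.44), which was 0.21 without CTR-5 and SS-5 and 0.08 without CTR-1 and CTR-2. Cacna2d1 had a log2FC of 0.19 (95% interval -0.08 to 0.46), which was 0.35 without CTR-5 and SS-5 and 0.06 without CTR-1 and CTR-2. Cacna2d4, known mainly from the retina, was scarce, at 3.05, 5.45, 4.84 and 5.20 CPM in CTR and 6.19, 8.09, 7.31 and 13.0 CPM in SS. All SS libraries were above all CTR libraries, SS-5 being highest, with a log2FC of 0.90 (SE 0.32, adjusted p = 0.746, edgeR). Without SS-5 the log2FC was 0.64, and its unadjusted p was then no longer under 0.05 in edgeR.

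The 4 calcium channel beta subunits, intracellular partners that the pore needs to reach the membrane, had the narrowest range of the subfamilies with more than 1 gene, with log2FC values from -0.16 (Cacnb3) to 0.08 (Cacnb2). Cacnb3 and Cacnb1 were the most abundant (23.3 ± 3.38 and 21.5 ± 1.95 RPKM in CTR). Cacnb3 was at 93.3 ± 13.6 CPM in CTR and 83.6 ± 5.77 in SS (SD, n = 4).

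The Cacng family holds mostly TARPs, which carry AMPA-type glutamate receptors to the synapse rather than calcium channels. Of 7 tested, 6 were lower and 1 (Cacng5) higher, with a median log2FC of -0.08. Cacng7 alone gave about as much RPKM as the rest together (53.5% ± 4.37 in CTR and 53.9% ± 3.14 in SS), and had a log2FC of -0.08 (95% interval -0.34 to 0.18), which was -0.23 without CTR-5 and SS-5 and 0.02 without CTR-1 and CTR-2. Cacng3, a TARP of forebrain excitatory neurons, was at 35.5, 55.1, 38.4 and 42.8 CPM in CTR and 33.1, 33.2, 30.5 and 35.0 CPM in SS. All SS values were below all CTR values, although CTR-1 and SS-5 were within 1 CPM, and the log2FC was -0.38 (SE 0.15, adjusted p = 0.755, edgeR). Markers of cortex and hippocampus excitatory neurons moved alongside, with 4 of 5 lower in SS and a summed level of 499 to 1410 CPM in CTR against 500.2 to 542 CPM in SS. Their part in the level of Cacng3 was not tested.

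Of 13 genes whose products bind or regulate calcium channels, 9 were lower and 4 higher, and none was called by edgeR or DESeq2. Calm3, which encodes calmodulin, the sensor for calcium-dependent inactivation, was chosen after its values were seen. It was at 1475 ± 99.7 CPM in CTR and 1246 ± 28.5 in SS, with a log2FC of -0.24 (SE 0.07), and the groups did not overlap.

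HCN channels open on hyperpolarization, pass a mixed cation current and are gated by cyclic nucleotides. Hcn2 was the most abundant (129 ± 18.1 RPKM in CTR) and made up 89.3% ± 1.61 of the HCN total per exon length in CTR and 86.8% ± 0.364 in SS. Hcn3 was at 9.24 ± 1.49 RPKM in CTR and Hcn4 at 3.99 ± 0.977.

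Hcn2 was at 436, 444, 439 and 325 CPM in CTR and 381, 314, 363 and 384 CPM in SS. CTR-5 was as low as the SS libraries, whereas CTR-1, CTR-2 and CTR-3 lay within 10 CPM of each other and above all SS values. The log2FC was -0.19 (95% interval -0.44 to 0.06) over all libraries, and it was -0.32 without CTR-5 and SS-5 and -0.08 without CTR-1 and CTR-2. Hcn3 was at 43.6, 30.5, 43.0 and 36.5 CPM in CTR and 49.2, 36.7, 45.0 and 54.6 CPM in SS and overlapped, with a log2FC of 0.27 (95% interval -0.08 to 0.62). Hcn4, the form of the cardiac pacemaker, had a log2FC of -0.11 (95% interval -0.52 to 0.31), which turned sign without CTR-1 and CTR-2 (0.22). Pex5l, which encodes the trafficking partner TRIP8b, had a log2FC of -0.03 (SE 0.19).

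Nalcn, which encodes the voltage-insensitive sodium leak channel, was at 95.7, 99, 144 and 152 CPM in CTR and 166, 155, 148 and 147 CPM in SS. CTR-1 and CTR-2 were far below all other libraries, and CTR-3 and CTR-5 were close to the SS values. The log2FC was 0.33 (SE 0.15, adjusted p = 0.755, edgeR), and it was 0.47 without CTR-5 and SS-5 and 0.06 without CTR-1 and CTR-2. The genes of its complex, Unc79, Unc80 and Fam155a, had log2FC values of 0.23, 0.02 and -0.12 and were not called.

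**Figure D3:**
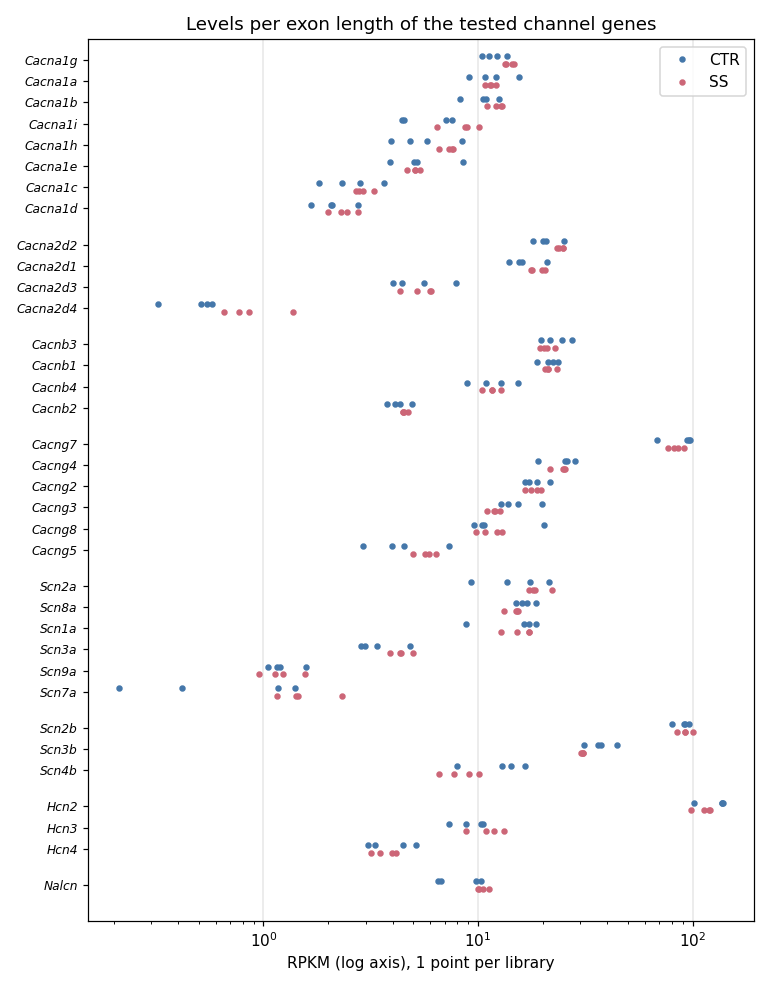
RPKM (horizontal log axis) of 35 tested channel genes, 1 point per library, with CTR in blue and SS in red, ordered by mean level within each subfamily. Hcn2, Scn2b and Cacng7 are the most abundant of those shown, and the CTR points are spread more widely than the SS points for most genes.

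A set of 13 channels known from pacemaking in midbrain neurons (Cacna1c, Cacna1d, Cacna1g, Cacna1h, Cacna1i, Hcn2, Hcn3, Hcn4, Nalcn, Scn1a, Scn2a, Scn3a and Scn8a) can be set beside the genes that define dopamine neurons. Of the 13, 3 were lower and 10 higher, and their log2FC values lay between -0.19 (Hcn2) and 0.53 (Cacna1i), with all 95% intervals between -0.52 and 0.96. All 8 dopamine neuron markers were lower in SS and 7 were called by edgeR. Slc6a3, the dopamine transporter, was at 598, 336, 243 and 613 CPM in CTR and 3.11, 2.72, 7.46 and 11.5 CPM in SS, a log2FC of -6.22 (SE 0.51, adjusted p = 0.000531, edgeR). Th, which encodes tyrosine hydroxylase, had a log2FC of -3.99 (SE 0.35, adjusted p = 0.000531, edgeR). Fewer cells of a type, less RNA per cell and a different position of the punch cannot be told apart in these bulk samples. In brain sections of other mice, the paper counted neurons stained for tyrosine hydroxylase in the parabrachial pigmented and paranigral parts of the VTA. It found similar numbers in both groups. In SS males it also reported weaker staining of tyrosine hydroxylase and the dopamine transporter in the VTA, and smaller transporter currents. The share of any channel's reads that came from dopamine neurons was not measured.

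**Figure D4:**
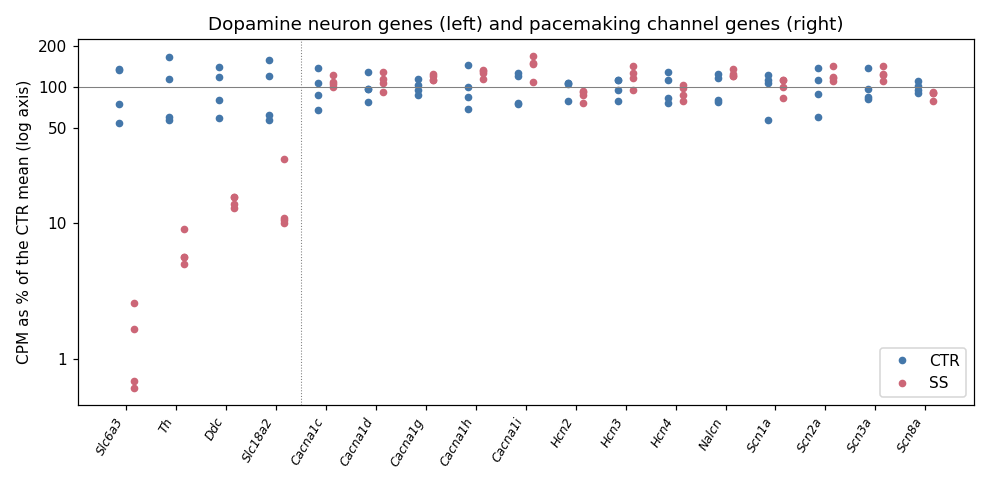
CPM of each library as a percentage of the CTR mean (vertical log axis) for 4 dopamine neuron genes (left of the dotted line) and 13 pacemaking channel genes (right). The SS points of the dopamine neuron genes lie far below the CTR points, whereas those of the channels lie much closer to the line at 100%. All SS points are above that line for Cacna1c, Cacna1g, Cacna1h, Cacna1i, Nalcn, Scn2a and Scn3a. They are all below it for Hcn2 and Scn8a, and on both sides for the other channels.

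Levels of other markers differed between the groups as well, in some lists only slightly. All 6 general neuronal markers were lower in SS, with a summed level of 4459 to 4825 CPM in CTR and 3719 to 4019 CPM in SS, the same direction as Scn3b and Fgf13. Snap25, the most abundant of the 6 by counts, was the only one without overlap. It was at 2007 ± 75.4 CPM in CTR and 1559 ± 149.6 in SS. Of 8 markers of fast-firing parvalbumin neurons, which also use Scn4b, 7 were lower, with sums of 1601 to 2015 CPM in CTR and 1269 to 1611 CPM in SS. Only 2 of the 8 did not overlap. All 4 GABA neuron markers were slightly higher in level (median log2FC 0.11, 910.2 to 1084 CPM in CTR and 1015 to 1165 CPM in SS), and each overlapped. All 7 hypothalamic and mammillary markers were higher too, at 74.0 to 146 CPM against 139 to 175 CPM, but only 1 of them did not overlap. Of 4 thalamic markers, 3 were lower. All 6 oligodendrocyte and all 6 microglia markers were slightly lower (median log2FC -0.08 and -0.10), and each overlapped. None of these lists but that of dopamine neurons held a gene called by edgeR. The genes called by DESeq2 included Snap25 (adjusted p = 0.0108), the parvalbumin neuron marker Pvalb (0.0451) and the cortical marker Nrgn (7.11e-06), all lower in SS. Their part in the channel levels was not tested.

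Exon length also moved with the fold changes. Over the 36 members with at least 10 CPM, Spearman's rho between exon length and log2FC was 0.376, close to 0.381 over the 10204 genes at that level. These genes share the same libraries and are not independent. The median log2FC of all genes was -0.20 under 2 kb of exon and 0.10 over 8 kb, and the 20 members over 8 kb had a median of 0.14. Exon length went with differences between libraries of 1 group too. The log2 difference of CTR-5 from CTR-1 had a rho of 0.578 with exon length over the members and 0.561 over all genes.

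With a term for exon length in each library, edgeR again called 0 members (23 genes, 0.139%). At an unadjusted p under 0.05, 5 were then lower and 2 higher, against 6.81% of all genes. Scn3b and Scn4b kept negative fold changes (-0.32 and -0.64), whereas Cacna1i was at 0.45, Cacna1g at 0.13, Nalcn at 0.21 and Scn8a at -0.33. Scn3b and Scn4b have 5461 and 4982 bases of exon. Genes of 4 to 8 kb at 10 CPM or more had a median log2FC of 0.02, so the term could hardly turn their direction. The positive fold changes of the long genes were smaller with the term, which follows from its removing the trend with length.

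**Figure D5:**
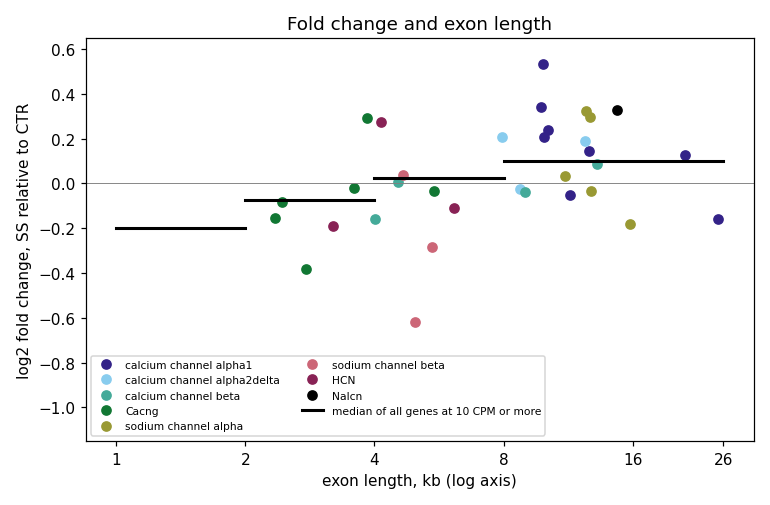
Log2 fold change (SS relative to CTR) of 33 channel genes with at least 10 CPM against exon length in kb (log axis), coloured by subfamily. Black lines give the median of all genes at that level in 4 classes of length, which goes from -0.20 under 2 kb to 0.10 over 8 kb.

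The CTR libraries were more uneven than the SS libraries. The SD of log2 CPM was larger in CTR for 37 of the 40 members (92.5%), against 83.1% of all genes, with median SDs of 0.32 and 0.12 over the members. Without CTR-5 and SS-5, 13 members did not overlap between groups (32.5%), against 20.1% of all genes. They included Cacng3, Cacng7, Hcn2 and Scn3b on the lower side and Cacna1h, Cacna1i, Cacna2d1, Cacna2d4, Cacnb2, Nalcn, Scn2a and Scn3a on the higher side, and edgeR called no member (background 0.0546%). At an unadjusted p under 0.05 it gave 3 lower and 6 higher members there, 22.5% against 10.6% of all genes.

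DESeq2 called 5 members on these 6 libraries (background 4.72%), with 2 lower, among them Hcn2, and 3 higher, namely Cacna1h, Cacna1i and Cacna2d1. Without CTR-5 alone it called 7 (background 3.55%), adding Cacna1s and Scn3a on the higher side. Of these, Cacna1s was too scarce for the edgeR test. Every CTR library left in that fit had 0 counts for it, against 13, 7, 50 and 27 counts in the SS libraries. Its call thus rests on counts near the floor, and CTR-1 and CTR-2 lacked counts for many other scarce genes. Without CTR-1 and CTR-2, by contrast, 6 members were lower without overlap (among them Cacna1a, Cacng3, Scn3b, Scn4b and Scn8a) and 2 higher (Cacna2d4 and Cacng5), 20% of the members against 14.7% of all genes. There edgeR called 0 members (background 0.0916%), and 8 were lower and 2 higher at an unadjusted p under 0.05, 23.3% of the 43 tested there against 6.34% of all genes. DESeq2 called Scn3b and Scn4b there, both lower (background 0.732%), with CTR-3 and CTR-5 as the only controls. Cacng3, Scn3b and Cacna2d4, which already did not overlap over all 8 libraries, are counted in both sets of 6 for that reason. The log2FC of Cacng3 was -0.42 without CTR-5 and SS-5 and -0.30 without CTR-1 and CTR-2, and that of Cacna2d4 was 0.69 without CTR-5 and SS-5 and 0.78 without CTR-1 and CTR-2.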

How the data were processed

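Total RNA was extracted from VTA punches and libraries were made with a kit for mRNA sequencing, for 4 CTR and 4 SS mice, and groups were taken from the sample labels. Per the labels and the study's methods, the authors checked reads with FastQC, trimmed with cutadapt, used STAR for alignment to mm10 and HTSeq for counting, and deposited raw counts per gene. In R 4.3.3, genes were filtered with filterByExpr (minimum count 10, minimum total count 15), normalized with TMM and compared with edgeR 4.0.16 (glmQLFit, glmQLFTest, group as the only term), with Benjamini-Hochberg adjustment at 0.05 over 16538 genes. For genes whose groups did not overlap, the exact two-sided permutation test over 70 assignments gives its smallest possible p (0.029). Alternatives were DESeq2 1.42.0, its size factors in edgeR, no filter, edgeR's bias-adjusted estimate, the replicate number as a block, each library left out, and 2 sets of 6 libraries. The exon-length term and the DESeq2 fits on fewer libraries were added after seeing the data. Exon lengths and positions came from GENCODE M21 on GRCm38, and all 45 members matched. Named genes were those called by either tool, those with an unadjusted p under 0.05 or no overlap, the most abundant of each subfamily, the channels of midbrain pacemaking, and the called, most abundant or defining genes of each partner or marker list. A few members, partner genes and markers are not reported here. The members and lists were chosen with earlier results of these data known. Both tools were run on simulated data with larger fold changes than nearly all members had and with equal spread in the groups. That run cannot tell how often differences as small as those of the members would be found. P-values set the difference between groups against the spread of libraries within groups, and do not account for litters. The counting's strand setting is not given in the sources used here.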

Additional observations from a re-analysis of the deposited data

Results flagged for a closer look

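Of 82 sets of 4 values examined (the 40 tested members and Fgf13, in each group), 4 held a library whose gap to its nearest neighbour was a large part of the whole range, where chance gives about 4.1 at 1 in 20. The gap was 0.934 of the range for Hcn2, where CTR-5 was lowest (325 CPM, the other CTR libraries 436 to 444). It was 0.876 for Cacng7, where CTR-5 was again lowest (167 against 229 to 238 CPM), and 0.898 for Cacng8, where CTR-5 was highest (47.5 against 22.4 to 25.0 CPM). It was 0.859 for Cacng4, where SS-4 was lowest (77.1 against 88.8 to 90.8 CPM). CTR-5 is one of the libraries with Xist and without Y-linked transcripts, and it had the highest sum of cortex and hippocampus markers (1410 CPM against 499 to 942 in the other CTR libraries). Its part in these values was not tested.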

How the results depend on the processing

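In edgeR no member was called under any of the alternatives run, and in DESeq2 1 member was called lower and 1 binding partner (Fgf13) lower. DESeq2's count of members ranged over the fits without 1 library from 0 to 2 lower and from 0 to 5 higher. The share of all genes called went from 0.197% to 3.55% (the latter without CTR-5). The 5 higher members were also found without CTR-5 and included Cacna1s, which had no CTR counts in that fit. The count of members was 2 lower and 3 higher without CTR-5 and SS-5, and 2 lower without CTR-1 and CTR-2. The members without overlap ranged from 3 to 5 lower and from 1 to 6 higher with 1 library left out, while the share of all genes without overlap went from 6.37% to 15% (the latter without CTR-5, where the 5 and 6 were found), against 4.67% over all libraries. They were 5 lower and 8 higher without CTR-5 and SS-5, and 6 lower and 2 higher without CTR-1 and CTR-2. The median log2 fold change of the members moved from 0.02 to 0.16 without CTR-5 and SS-5. DESeq2's size factors, no filter and the bias-adjusted estimate reversed no sign.

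Signs that turned belonged mostly to log2 fold changes near 0. Without CTR-5 and SS-5 they included Cacna1a (0.0748), Cacna1e (0.143), Cacna2d3 (0.295), Cacnb4 (0.15) and Cacng8 (0.191). Without CTR-1 and CTR-2 they included Cacna1c (-0.157), Cacnb1 (-0.0132), Cacng4 (0.132), Cacng7 (0.0181), Hcn4 (0.218), Scn11a (0.423) and Scn1a (-0.101). With the exon-length term they included Cacnb1 (-0.0037), Cacnb2 (-0.0371), Cacng4 (0.0088) and Scn1a (-0.0574). With 1 library left out, the ranges that crossed 0 included Cacna1a -0.164 to 0.103, Cacna1c -0.0151 to 0.323, Cacna1e -0.304 to 0.108, Cacna2d3 -0.146 to 0.206, Cacnb1 -0.0508 to 0.0505, Cacnb4 -0.159 to 0.104, Cacng2 -0.0814 to 0.0428, Cacng4 -0.124 to 0.0524, Cacng8 -0.274 to 0.166, Hcn4 -0.222 to 0.0341, Scn11a -0.658 to 0.998, Scn1a -0.155 to 0.145, Scn2b -0.0156 to 0.0773 and Scn9a -0.17 to 0.105. The cause was not tested.

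Whether the replicate numbers shared by the groups (2, 3 and 5) pair the libraries is not known. The deviations of same-numbered libraries from their group means correlated at -0.00625, -0.00767 and 0.0603 over all genes. Such correlations cannot show whether libraries shared a day or another batch, and both libraries with Xist carry the number 5. With the replicate number as a block no member was called, and the signs of Cacna1c (-0.052), Cacnb1 (-0.0924), Cacng4 (0.115), Scn11a (1.81), Scn1a (-0.157) and Scn2b (-0.0206) turned. Depth limits Cacng6 and Scn11a most, which had about 1 CPM or less and intervals spanning from -5.20 to 1.72 and from -2.79 to 2.30.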
